A study of Mus musculus with 16 samples.

Results

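The 10 genes described here encode hormones and releasing peptides of the pituitary and the hypothalamus. They are *Prl*, *Gh*, *Cga* and *Pomc*, expressed in the pituitary, and *Oxt*, *Avp*, *Hcrt*, *Pmch*, *Trh* and *Ghrh*, expressed in hypothalamic neurons. They form a list that was matched by symbol, and all 10 were found among the 39179 gene identifiers of the count table. The genes were chosen by their measured counts in the 4 groups, with the age differences of these mice in view, so the differences between ages are given as a description and without a test.

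RNA of brain was sequenced from 16 mice in 4 groups of 4. Wild-type mice and mice homozygous for *Mrps5* V338Y, a knock-in change in a protein of the small mitochondrial ribosomal subunit, were sampled at 3 and at 19 months. The methods describe total cortex of female mice, whereas the labels give brain as tissue and muscle in the extraction text. The counts went against a single sex. The Y-linked genes *Ddx3y*, *Uty*, *Eif2s3y* and *Kdm5d* had 340 counts or more in each of the 8 mice of 3 months and 0 counts in each of the 8 mice of 19 months, whereas *Xist* had at most 20 counts at 3 months and at least 6331 at 19 months. Age and sex therefore cannot be told apart in these mice, while the genotypes were compared within one age and one pattern of sex-linked genes. The labels of the 19-month mice end in -N and those of the 3-month mice do not, so age is tied to this mark too. Below, a rise or fall with age means 19 against 3 months in these mice, whatever its cause. Total counts were between 6181448 and 19601664 per mouse.

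Hormones of the anterior pituitary are made by dedicated cell types of a gland that lies below the brain and outside the cortex. Lactotrophs make prolactin, somatotrophs make growth hormone, and gonadotrophs and thyrotrophs make the common alpha subunit encoded by *Cga*. Hypothalamic neurons either send axons to the posterior pituitary, as the oxytocin and vasopressin neurons do, release factors into the portal blood that drive pituitary cells, as *Trh* and *Ghrh* neurons do, or project through the brain, as the orexin (*Hcrt*) and melanin-concentrating hormone (*Pmch*) neurons of the lateral hypothalamus do. *Pomc* is made both in pituitary corticotrophs and melanotrophs and in neurons of the arcuate nucleus, so its transcripts do not tell these sources apart. In tissue RNA, fewer cells of a type and less RNA per cell cannot be told apart either.

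*Prl* lies at chr13:27057570-27065205 (GRCm38). POU1F1, also called Pit-1, is the pituitary transcription factor that drives *Prl* and *Gh*, and the motif ATGNATA is the core of its recognition sequence. The 250 bases before the start of *Prl* are shown because they hold this motif, which is marked in capitals on whichever strand it was found (RefSeq, GRCm38.p6, plus strand).
Prl, chr13:27057320-27057569: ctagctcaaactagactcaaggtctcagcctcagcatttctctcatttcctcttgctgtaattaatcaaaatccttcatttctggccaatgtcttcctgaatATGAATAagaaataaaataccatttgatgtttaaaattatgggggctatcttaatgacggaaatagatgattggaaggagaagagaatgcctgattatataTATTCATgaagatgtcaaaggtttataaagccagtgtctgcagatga
The motif was found 2 times, from base -148 to -142 on the plus strand and from base -47 to -41 on the minus strand, counted back from the gene start. Among 32851 promoters of the same length, 7.92% held at least 1 match on either strand and 1.26% held at least 2. Of the 9 hormone genes with a promoter in the table, *Prl* was the only one with a match. *Gh* had no promoter in the table and was not searched. The factor itself, *Pou1f1*, had no count in any mouse of 3 months or in V338Y mice of 19 months, and at most 2 counts in wild-type mice of 19 months.

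*Prl* showed the largest differences between the groups in CPM (counts scaled to the library total). Its counts were 0, 0, 0 and 2 in wild-type mice 9, 10, 11 and 12 of 3 months, and 0 in V338Y mice 13, 14, 15 and 16 of 3 months. At 19 months they were 759, 909, 518 and 564 in wild-type mice 12, 13, 14 and 15. In V338Y mice 17, 18, 19 and 20 they were 176, 235, 277 and 220. The 3-month mice were at or close to 0, and no V338Y mouse of 19 months reached the lowest wild-type mouse of that age. In CPM, the means at 19 months were 70.8 ± 16.8 (SD, n = 4) in wild-type and 15.3 ± 1.63 (SD, n = 4) in V338Y mice.

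*Gh*, which encodes growth hormone and lies at chr11:106300271-106301865, followed the same order at a lower level. It had 0, 0, 0 and 13 counts in wild-type mice 9 to 12 of 3 months and 0, 0, 0 and 1 in V338Y mice 13 to 16. At 19 months the wild-type mice had 60, 59, 44 and 35 counts and the V338Y mice 16, 13, 14 and 12. Mean levels at 19 months were 5.02 ± 0.498 CPM in wild-type and 0.982 ± 0.410 CPM in V338Y mice (SD, n = 4 each), and the groups did not overlap.

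*Cga*, at chr4:34893779-34907370, encodes the alpha subunit that luteinising hormone, follicle-stimulating hormone and thyrotropin share. Among the 8 mice of 3 months it had a single count, in wild-type mouse 10. At 19 months it had 8, 18, 45 and 12 counts in wild-type and 2, 3, 5 and 0 in V338Y mice. Its exons overlap those of *Platr9* on the opposite strand, and whether the counting used strand is not given in the sources used here. The mean was 2.22 ± 1.8 CPM in wild-type and 0.165 ± 0.114 CPM in V338Y mice of 19 months (SD, n = 4 each).

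**Figure D1:**
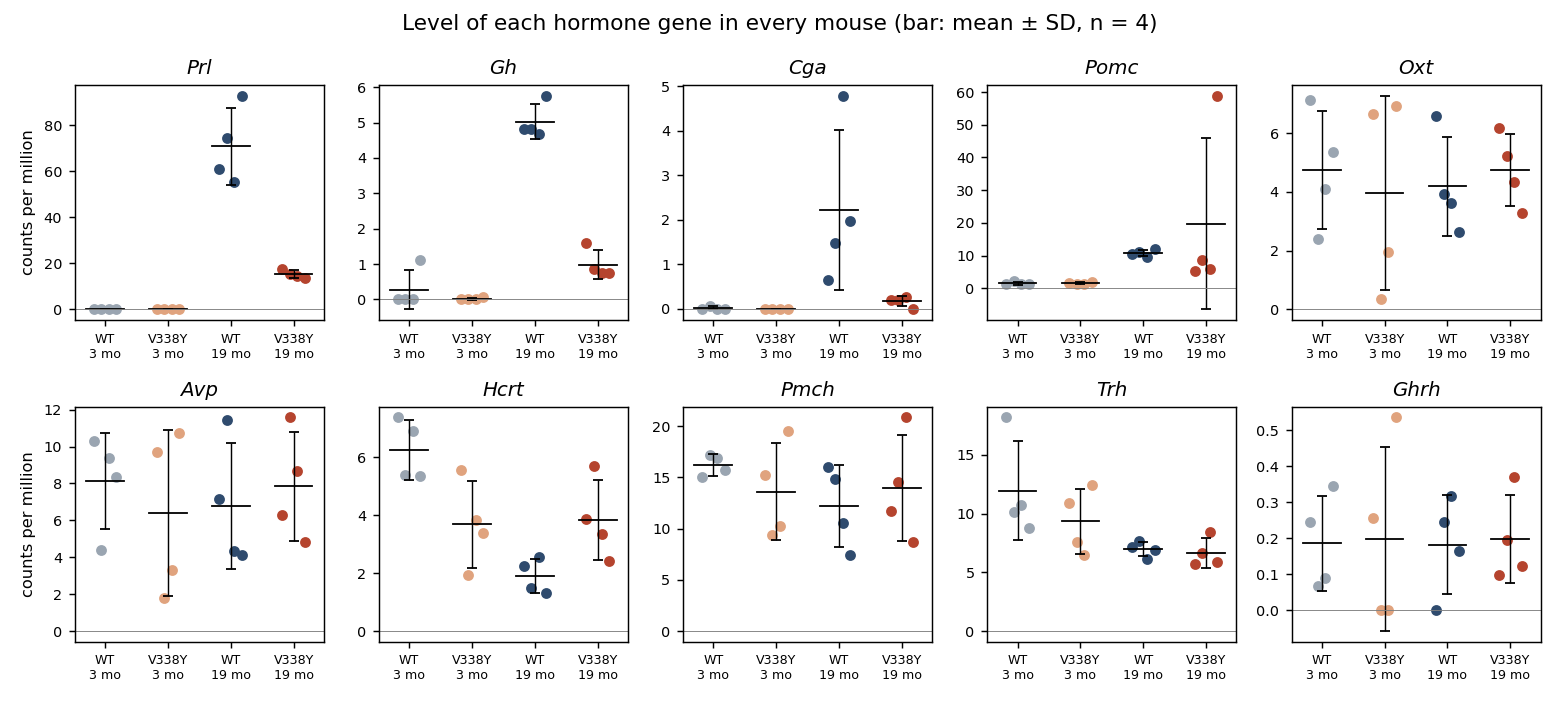
CPM of the 10 hormone genes in each mouse, on a linear axis per gene, with points for mice and bars for the mean ± SD of the 4 mice of a group. Prl, Gh and Cga are near 0 at 3 months, and at 19 months every V338Y mouse lies below every wild-type mouse for these genes; Pomc in V338Y mouse 20 (58.9 CPM) stands apart.

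The comparison of genotypes at 19 months asked whether mitochondrial mistranslation changes the transcriptome of old mice. *Prl* and *Gh* were lower in V338Y mice. With edgeR's quasi-likelihood test, adjusted over all genes tested, the log2 fold change was -2.23 (SE 0.201, adjusted p = 0.0027) for *Prl* and -2.44 (SE 0.220, adjusted p = 3.34e-09) for *Gh*. From the pooled counts, *Prl* was 4.55-fold and *Gh* 5.41-fold lower in V338Y than in wild-type mice. The values of these mice were known when the genes were chosen, so these p-values are not independent of that choice. For *Cga* the fitted difference was -3.62 (SE 0.907), but *Cga* passed the count filter only through the wild-type mice, where it was high, so that its direction was partly set by the filter. Its adjusted p was 0.0972 in edgeR, 0.0161 in one edgeR fit of all 16 mice, 1.02e-09 in edgeR with no count filter, 0.0027 in DESeq2, and between 0.0016 and 0.251 in edgeR when a mouse was left out. *Cga* too was chosen with these values known, so its p-values show the dependence on settings only and are no support for a difference. Of the 9 hormone genes that passed the count filter, 2 passed the test, both lower, against 3.12% of all 16420 genes tested, or 1.92% for genes that were lower. For *Prl*, *Gh* and *Cga* all V338Y mice lay below all wild-type mice, as for 3.5% of all genes tested. These counts are a description of a list drawn up with values of these mice known.

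The size of the genotype difference could not be told apart between *Prl* and *Gh*. The number of *Prl* counts per *Gh* count was 12.7, 15.4, 11.8 and 16.1 in the wild-type mice of 19 months, and 11, 18.1, 19.8 and 18.3 in the V338Y mice. The ratio overlapped between the genotypes, at 14 ± 2.10 in wild-type and 16.8 ± 3.94 in V338Y mice (SD, n = 4 each). The difference of 0.24 on the log2 scale had a two-sided exact permutation p of 0.286 over 8 mice. Counting error is wide for the V338Y ratios, since *Gh* had between 12 and 16 counts there. In V338Y mouse 20, for example, the exact 95% interval of the ratio was 10.3 to 36.0, which covers counting error only.

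**Figure D2:**
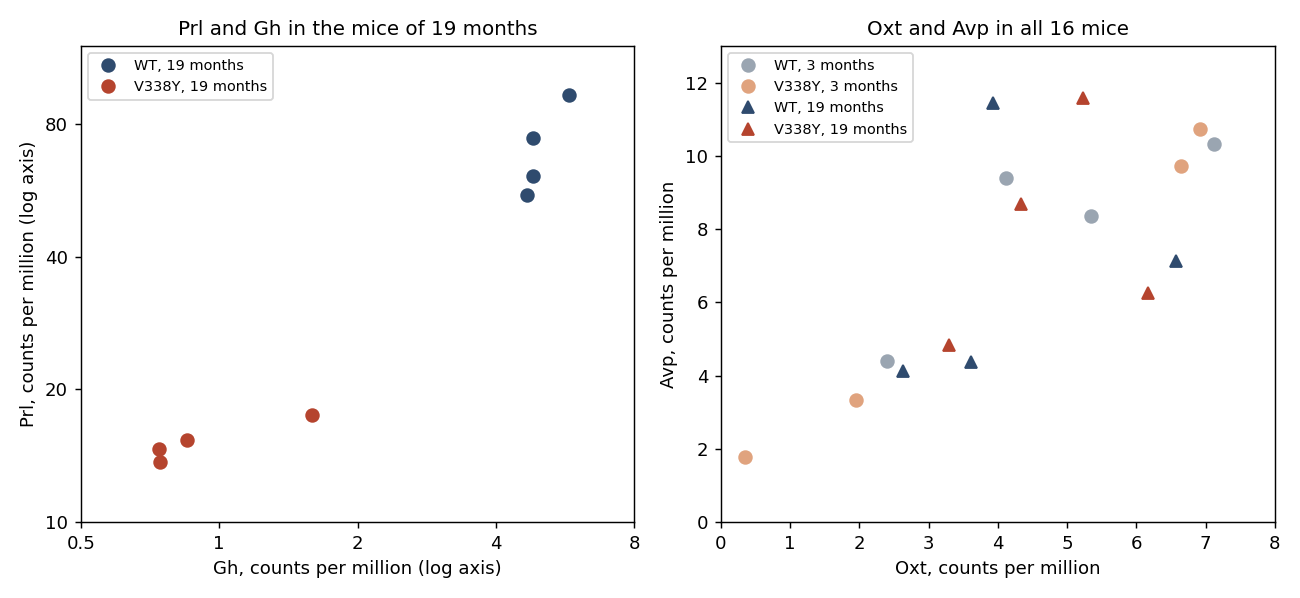
Left, Prl against Gh in the 8 mice of 19 months, in CPM on log axes; the genotypes form separate clusters. Right, Oxt against Avp in all 16 mice, in CPM on linear axes; the V338Y mouse of 3 months with the lowest Oxt (0.355 CPM) also has the lowest Avp (1.77 CPM).

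*Pomc*, at chr12:3954951-3960642, encodes the precursor of corticotropin and of melanocyte-stimulating hormones. It had 10, 33, 14 and 15 counts in wild-type and 26, 24, 17 and 31 in V338Y mice of 3 months. Unlike *Prl*, *Gh* and *Cga*, it thus had counts in every mouse of that age. At 19 months the wild-type mice had 130, 137, 91 and 73 counts and the V338Y mice 53, 134, 112 and 948. In CPM the wild-type mice of 19 months lay between 9.68 and 12, V338Y mice 17, 18 and 19 between 5.27 and 8.77, and V338Y mouse 20 at 58.9. The genotype difference was therefore decided by 1 mouse. With all mice, the log2 fold change was 0.89 (SE 0.971, edgeR adjusted p = 0.738). Without V338Y mouse 20 it was -0.69 with an adjusted p of 0.0048, in the direction of *Prl* and *Gh*. In mouse 20 itself, *Prl* was at 13.7 CPM, against 14.7 to 17.5 CPM in the other V338Y mice of 19 months, and *Gh* at 0.746 CPM, against 0.741 to 1.59 CPM. *Tbx19*, the factor that defines *Pomc*-producing pituitary cells, was close to 0 in every group. It had at most 1 count in any V338Y mouse of 19 months, at most 3 in wild-type mice of that age and at most 1 at 3 months.

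Other genes of the anterior pituitary were scarce. Of 13 such genes in the table, 10 had a count in wild-type and 7 in V338Y mice of 19 months, against 5 and 8 in wild-type and V338Y mice of 3 months. Their summed level was between 1.98 and 3.94 CPM in wild-type and between 0.697 and 2.42 CPM in V338Y mice of 19 months, and between 0.725 and 2.50 CPM at 3 months. *Fshb*, the beta subunit of follicle-stimulating hormone, had 0 to 7 counts in wild-type mice of 19 months and none in the other groups. The receptors for the releasing hormones, *Ghrhr* and *Gnrhr*, had no count in any mouse, a total of 0 that allows up to 3 counts in each group. *Lhb* was not analysed here.

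Markers of other tissues also differed between these groups. Of 8 markers of the meninges, the membranes around the brain, 4 were lower in V338Y mice of 19 months, against 1.92% of all genes tested. One of these was *Slc22a6* at -0.62 (SE 0.0912, edgeR adjusted p = 6.71e-05), named after its values were seen. The summed level of the 8 was between 199 and 255 CPM in wild-type and between 171 and 212 CPM in V338Y mice of 19 months, and between 63.9 and 102 CPM at 3 months. None of the 8 was at 0 in any group. The sum over 5 blood genes was between 432 and 896 CPM in wild-type and between 379 and 465 CPM in V338Y mice of 19 months, and at most 257 CPM at 3 months. Cerebellar markers summed to between 670 and 1988 CPM in 7 of the 8 mice of 3 months, to 92.1 CPM in V338Y mouse 14, and to at most 89.4 CPM at 19 months. Markers of the choroid plexus were highest in V338Y mice 17 and 18 of 19 months, at 2228 and 2257 CPM. The part of these differences in the hormone gene results was not tested. Cortical markers summed to between 660 and 862 CPM over all mice, and none of the 8 was at 0 in any group.

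**Figure D3:**
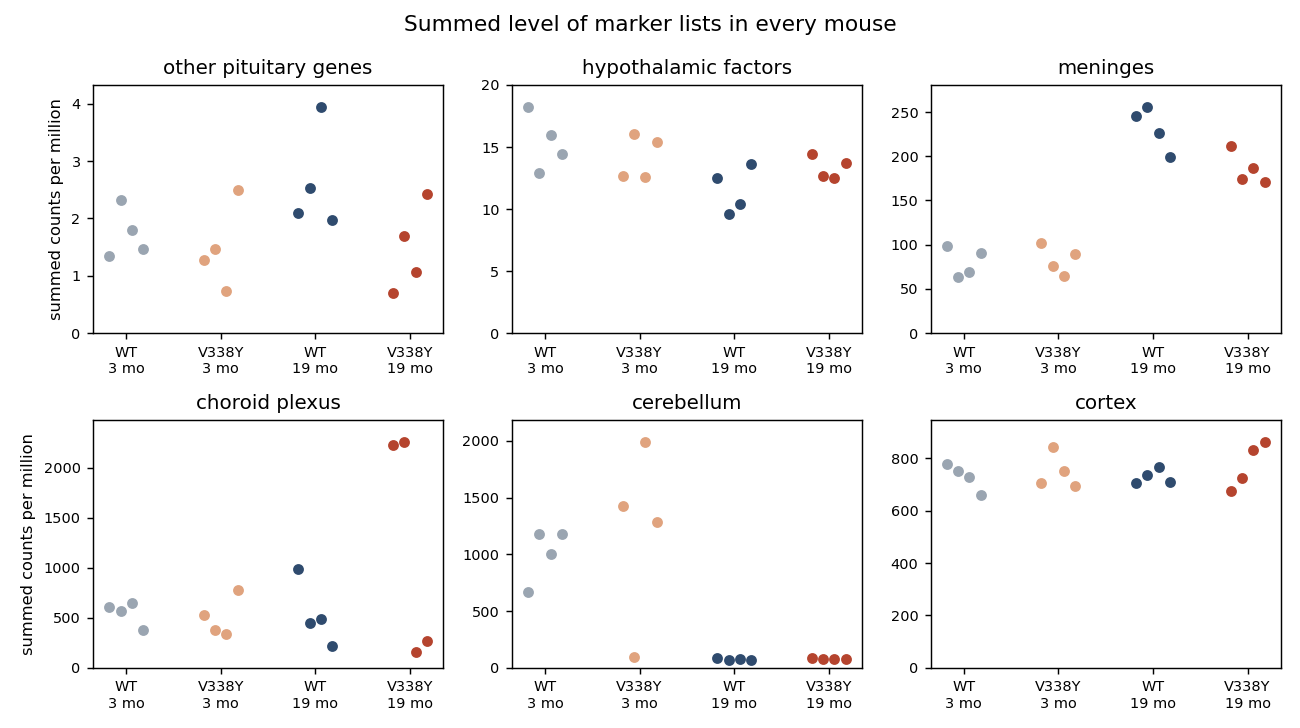
Summed CPM of 6 marker lists in each mouse on linear axes from 0, one point per mouse. At 19 months the meninges list is at 199 to 255 CPM in wild-type and 171 to 212 CPM in V338Y mice, and the cerebellum list is at most 89.4 CPM at 19 months against 670 to 1988 CPM in 7 of 8 mice of 3 months.

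The hypothalamic hormone genes did not follow the pituitary genes. *Oxt*, which encodes oxytocin, and *Avp*, which encodes vasopressin, are neighbours on chromosome 2 that arose by duplication and are transcribed towards each other, *Oxt* at chr2:130576173-130577054 on the plus strand and *Avp* at chr2:130580620-130582554 on the minus strand, 3565 bases apart. Both lie 2.97 Mb from *Mrps5* itself. The bases that encode the 9 residues of each hormone are shown because they make plain how close the paralogs are. Both stretches lie in exon 1 of 3 (GENCODE M21, GRCm38, each on its own strand), and capitals mark the bases at which they differ.
Oxt, chr2:130576267-130576293: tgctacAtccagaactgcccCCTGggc
Avp, chr2:130582446-130582472: tgctacTtccagaactgcccAAGAggc
They differed at 5 of 27 bases, in 3 of 9 codons, and 2 of these codons change the amino acid. The coding sequences of 375 and 504 bases were 66.7% identical over 505 aligned positions, and the transcripts share an identical run of 127 bases, longer than a single read. The counts of both genes therefore depend on how reads from within that run were assigned.

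*Oxt* had 58, 36, 46 and 62 counts in wild-type and 104, 7, 27 and 116 in V338Y mice of 3 months. At 19 months it had 82, 48, 34 and 16 in wild-type and 62, 80, 82 and 53 in V338Y mice. The 4 groups overlapped, with means between 3.97 and 4.76 CPM and SDs between 1.23 and 3.31 CPM. *Avp* had 84, 66, 105 and 97 counts in wild-type and 152, 35, 46 and 180 in V338Y mice of 3 months, and at 19 months 89, 140, 41 and 25 in wild-type and 63, 177, 164 and 78 in V338Y mice. Its means were between 6.39 and 8.12 CPM and its groups overlapped as well. Between the genotypes at 19 months, the log2 fold change was 0.06 (SE 0.258, edgeR adjusted p = 0.943) for *Oxt* and 0.13 (SE 0.426, adjusted p = 0.928) for *Avp*. At 3 months it was -0.22 (SE 0.796) and -0.32 (SE 0.605), neither past the test.

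*Oxt* and *Avp* varied together between the mice of 3 months. Over these 8 mice, Pearson's r of log2 CPM was 0.970 and Spearman's rho 0.952, with two-sided exact permutation p of 4.71e-04 and 0.0011, or 0.0203 and 0.0245 after adjustment over 43 pairs of hormone genes. Without the 2 mice farthest from the median of *Oxt*, r was 0.918 over 6 mice (exact permutation p = 0.0264, adjusted p = 0.227). With each genotype centred on its mean, r was 0.967 (exact permutation p = 0.0069 over 8 mice, adjusted p = 0.149). In both settings, too few arrangements of the mice exist for any pair to pass alone after adjustment. At 19 months r was 0.505 and rho 0.595 (exact permutation p = 0.202 and 0.132 over 8 mice, adjusted p = 0.414 and 0.438). *Avp* counts were between 1.02 and 5 times the *Oxt* counts over the 16 mice, and the ratio did not differ detectably between the genotypes (exact permutation p = 0.971 at 19 months and 0.8 at 3 months, 8 mice each). V338Y mouse 14, in which cerebellar markers were low, had the lowest *Oxt* and *Avp* levels of the 3-month mice and the ratio of 5.

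The 43 pairs were 28 at 19 months among 8 hormone genes and 15 at 3 months among 6. By Pearson's r, the other pair that passed after adjustment was *Prl* and *Gh* at 19 months. Its genotypes form separate clusters of 4 mice, so no pooled coefficient is given. With each genotype centred on its mean, r was 0.595 over the 8 mice (exact permutation p = 0.0035, adjusted p = 0.149). By Spearman's rho, *Trh* also passed with *Avp* and with *Oxt* at 3 months, with rho of 0.929 and 0.905 (exact permutation, adjusted p = 0.0320 and 0.0491). Pearson's r of these pairs was 0.730 and 0.676 (exact permutation, adjusted p = 0.187 and 0.269), and 0.438 and 0.499 without the 2 farthest mice. *Prl* and *Gh* form 10 pairs with the hypothalamic genes *Oxt*, *Avp*, *Hcrt*, *Pmch* and *Trh*. None of the 10 passed after adjustment by Pearson's r or Spearman's rho. For 2 of them, *Prl* and *Gh* each with *Hcrt*, the unadjusted exact permutation p on Pearson's r was under 0.05. In these 2 pairs, too, the genotypes are apart in *Prl* and *Gh*. With each genotype centred on its mean, r was -0.410 for *Prl* and 0.052 for *Gh* with *Hcrt* (exact permutation p = 0.316 and 0.924 over 8 mice).

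*Hcrt* encodes the precursor of the orexins, peptides that sustain wakefulness and appetite, and lies at chr11:100761069-100762931. It had 60, 81, 77 and 62 counts in wild-type and 87, 38, 53 and 57 in V338Y mice of 3 months. At 19 months it had 28, 18, 24 and 8 in wild-type and 39, 87, 63 and 39 in V338Y mice. In CPM, the wild-type mean was 6.25 ± 1.04 at 3 months and 1.90 ± 0.597 at 19 months (SD, n = 4 each), and the V338Y means were 3.68 ± 1.5 and 3.83 ± 1.38. The genotypes thus stood in opposite order at the 2 ages, with overlap at each age. At 19 months the log2 fold change of V338Y against wild-type mice was 0.95 (SE 0.281), with an edgeR adjusted p of 0.0855. DESeq2 gave an adjusted p of 0.0415 and edgeR with no count filter 2.58e-04, and leaving out a mouse gave between 0.0033 (without V338Y mouse 20) and 0.278. At 3 months the log2 fold change was -0.77 (SE 0.265, edgeR adjusted p = 0.926). The difference between both effects was 1.73 (SE 0.441), with an adjusted p of 0.187 in edgeR and 0.0260 in DESeq2. *Hcrt* was the hypothalamic gene of the list with the smallest p in each genotype comparison, and with the count filter and all mice it passed the edgeR test in none after adjustment.

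*Pmch* encodes melanin-concentrating hormone, which promotes feeding and sleep, and its exons at chr10:88091072-88092375 overlap *Parpbp* on the opposite strand. It had the highest mean level per kilobase of the hypothalamic genes in each group, with counts of 122, 259, 189 and 182 in wild-type and 239, 185, 141 and 327 in V338Y mice of 3 months. At 19 months it had 200, 182, 99 and 45 in wild-type and 118, 222, 394 and 140 in V338Y mice. Group means lay between 12.2 and 16.2 CPM, and the genotypes overlapped at both ages. *Trh*, at chr6:92242061-92244650, encodes thyrotropin-releasing hormone, which drives thyrotrophs and also stimulates prolactin release. It had 148, 152, 120 and 102 counts in wild-type and 171, 149, 89 and 208 in V338Y mice of 3 months, and 89, 94, 58 and 42 in wild-type and 57, 101, 160 and 94 in V338Y mice of 19 months. Its genotype difference at 19 months, -0.08 (SE 0.133, edgeR adjusted p = 0.838), had the smallest SE of the hormone genes tested, and its means were 6.98 ± 0.629 CPM in wild-type and 6.65 ± 1.28 CPM in V338Y mice. For *Pmch* the difference was 0.13 (SE 0.347, adjusted p = 0.908).

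*Ghrh*, the releasing hormone of somatotrophs at chr2:157329497-157347506, was close to the detection limit. It had 8 and 13 counts over the wild-type and V338Y mice of 3 months and 7 and 13 over those of 19 months, and no single mouse had more than 9. It passed the count filter in no comparison. From pooled counts, its V338Y level at 19 months was 1.24 times that of wild-type mice, with an exact 95% counting interval of 0.459 to 3.66.

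**Figure D4:**
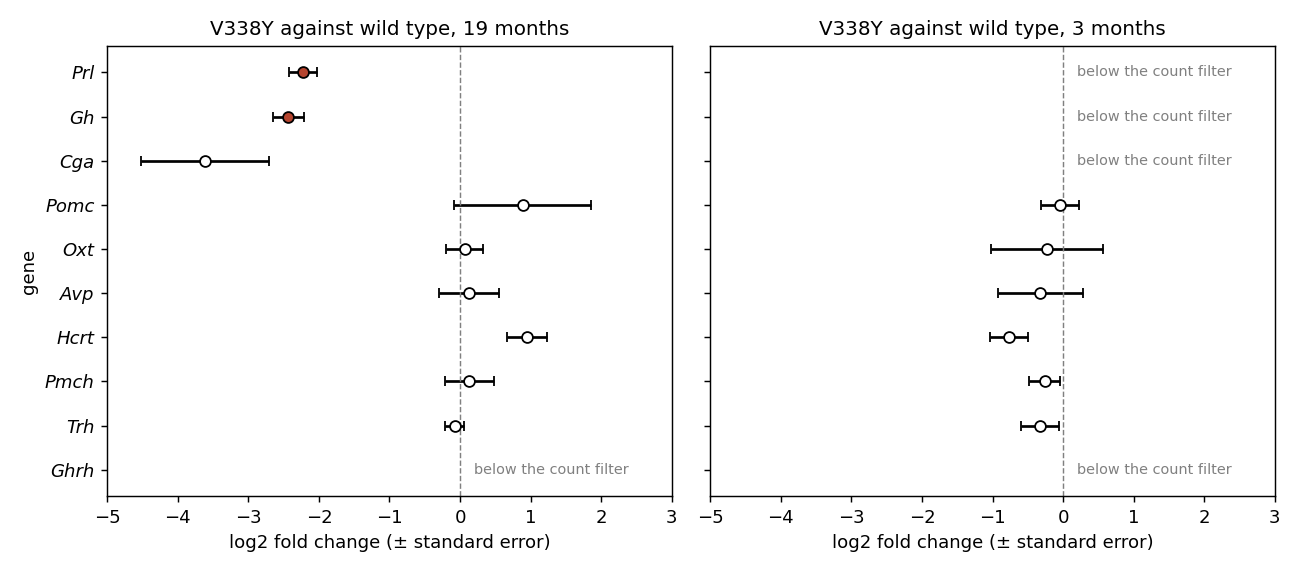
Log2 fold change of V338Y against wild-type mice (± standard error, edgeR) for each hormone gene at 19 months (left) and 3 months (right), with filled points for an adjusted p under 0.05. Prl (-2.23) and Gh (-2.44) pass the test at 19 months, no gene passes it at 3 months, and Hcrt lies to the right at 19 months (0.95) and to the left at 3 months (-0.77). The genes were chosen with values of these mice known, so the p-values are not independent of that choice.

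At 3 months, 6 hormone genes passed the count filter, namely *Pomc*, *Oxt*, *Avp*, *Hcrt*, *Pmch* and *Trh*. None passed edgeR's test between the genotypes, against 0.0616% of 16241 genes, and none passed in DESeq2. The unadjusted edgeR p was under 0.05 for 1 (*Hcrt*), as for 815 of the 16241 genes. The log2 fold changes were negative for all 6, between -0.77 for *Hcrt* and -0.05 for *Pomc*, and the groups overlapped for each. Without V338Y mouse 14 they were 0.21 for *Oxt*, 0.03 for *Avp* and 0.05 for *Pomc*. *Prl*, *Gh* and *Cga* were at or near 0 in both genotypes at 3 months, so that a difference was not detectable at this depth. For *Pomc*, *Oxt*, *Avp*, *Hcrt*, *Pmch* and *Trh* the difference of the genotype effects between the ages did not pass edgeR's test, against 0.0535% of 16831 genes. It is not given for *Prl*, *Gh* and *Cga*, whose 3-month counts do not allow it.

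Between the ages the pituitary genes differed most. These values chose the list and are given without a test. From pooled counts, *Prl* was 1572 times as high at 19 as at 3 months in wild-type mice, where 2 counts at 3 months leave an exact 95% counting interval of 435 to 12990, and at least 331-fold higher in V338Y mice, against a floor of 3 counts over the 3-month group. Both counts of the wild-type mice were from mouse 12, without which *Prl* was at least 784-fold higher. *Gh* was 17.4 times as high in wild-type mice, with an interval of 9.95 to 33.3. All 13 counts at 3 months were again from mouse 12, without which *Gh* was at least 56.4-fold higher, and the ratio was 11.7 without wild-type mouse 10 of 3 months. In V338Y mice it was 60.1 times as high, and the single count at 3 months leaves an interval of 10.4 to 2418, with a value of at least 14.9-fold without the mouse that held it (mouse 16). *Cga* was 94.9 times as high in wild-type mice, with an interval of 16.6 to 3794, and 56.7 times as high without wild-type mouse 14 of 19 months or at least 21.3-fold higher without wild-type mouse 10 of 3 months. In V338Y mice it was at least 3.64-fold higher. *Pomc* was 6.85 times as high in wild-type and 13.9 times as high in V338Y mice, or 4.55 times without V338Y mouse 20.

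The hypothalamic genes differed less with age. In wild-type mice the log2 fold change from 3 to 19 months was -1.63 for *Hcrt* and -0.69 for *Trh*, in both cases with no overlap between the ages. It was -0.31 for *Pmch*, -0.10 for *Avp* and -0.0040 for *Oxt*. In V338Y mice it was 0.08 for *Hcrt*, -0.47 for *Trh*, 0.06 for *Pmch*, 0.32 for *Avp* and 0.26 for *Oxt*, and the ages overlapped for each. In wild-type mice, 4 hormone genes were higher and 2 were lower at 19 months with no overlap, beside 25.5% and 30.5% of all 16101 genes. Of the 4, *Prl*, *Gh* and *Cga* passed the count filter only through the mice of 19 months. In V338Y mice, 3 were higher and none was lower, beside 21.1% and 23.6% of 16770 genes. The age comparisons share their mice with the genotype comparisons.

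The order of the levels differed between the mice of 3 and of 19 months. Per kilobase of exon (RPKM, here TMM-scaled CPM divided by exon length), the highest mean in wild-type mice of 3 months was that of *Pmch* at 21.6, apart from *Avp* at 14.1. *Avp*, *Oxt* (8.84), *Trh* (8.64) and *Hcrt* (8.35) overlapped with their neighbours in the order, and *Hcrt* was apart from *Pomc* at 1.13. In V338Y mice of 3 months the order was the same down to *Pomc*, with 18.1 for *Pmch*, and neighbours down to *Hcrt* overlapped. In wild-type mice of 19 months *Prl* came first at 50.3 ± 11.9, apart from *Pmch* at 16.3 ± 5.33 (SD, n = 4 each). *Pmch*, *Avp* (11.7), *Pomc* (8.22), *Oxt* (7.80), *Gh* (5.82) and *Trh* (5.04) followed with overlapping neighbours. *Trh* was apart from *Hcrt* (2.53), which overlapped *Cga* (2.33). In V338Y mice of 19 months *Prl* was at 10.9 ± 1.16 and came after *Pmch* (18.6), *Pomc* (15) and *Avp* (13.6), each overlapping its neighbour, and *Gh* was apart from both neighbours at 1.14. The place of *Pomc* rests on V338Y mouse 20, at 44.7, since in the other V338Y mice *Pomc* was at most 6.65 and below *Prl*, which was at 9.71 or more in each mouse.

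The further peptides of hypothalamic neurons that passed the test between the ages were lower at 19 months. Many of these, such as *Npy* and *Tac1*, are also made in cortical neurons. Of 9 tested in wild-type mice, none rose and 7 fell with age in edgeR, against 31.4% of all genes that rose and 31.5% that fell, and their median log2 fold change was -0.42, against -0.0050 for all genes. Of the 7, *Gal* passed the count filter only through the mice of 3 months. In V338Y mice, none of 10 rose and 3 fell, against 23.1% and 25.7% of all genes, with a median of -0.21. *Cartpt*, the precursor of a peptide that lowers food intake, fell by 0.71 in wild-type mice (SE 0.153, edgeR adjusted p = 3.65e-04) and by 0.40 in V338Y mice (SE 0.132, adjusted p = 0.0245). *Npy*, which promotes feeding, fell by 0.34 (SE 0.0887, adjusted p = 0.0018) and by 0.41 (SE 0.133, adjusted p = 0.0263). *Tac1*, the precursor of substance P, fell by 0.19 (SE 0.0803, adjusted p = 0.0444) and by 0.22 (SE 0.0756, adjusted p = 0.0293). Of 10 peptides tested between the genotypes at 19 months, none passed the test in edgeR or in DESeq2, against 3.12% of all 16420 genes in edgeR. The unadjusted edgeR p was under 0.05 for 1 (*Tac2*), as for 2660 of the 16420 genes. Of the hypothalamic transcription factors, all 12 were in the table and most were too low to test. Of 3 tested in wild-type mice, 1 rose and 2 fell, against 31.4% and 31.5% of all genes. Of 4 tested in V338Y mice, none rose and 1 fell, against 23.1% and 25.7%. *Lhx9*, which is also made in the thalamus, fell in both, by 0.61 (SE 0.171, adjusted p = 0.0026) and by 0.69 (SE 0.247, adjusted p = 0.0401). The sum of 8 thalamus markers was between 330 and 378 CPM at 3 months and between 225 and 286 CPM at 19 months, and its part in this difference was not tested.

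Of 11 receptors of the hormones that were tested, 6 rose and 2 fell with age in wild-type mice, against 31.4% and 31.5% of all genes. Of the 6, *Tshr*, *Lhcgr* and *Trhr2* passed the count filter only through the mice of 19 months, so that the filter favoured a rise. In V338Y mice 3 rose and 1 fell, against 23.1% and 25.7% of all genes, and the median log2 fold change of -0.04 was close to that of all genes, -0.03. *Prlr*, the prolactin receptor, which is abundant in the choroid plexus, rose by 1.58 (SE 0.296, edgeR adjusted p = 0.0033) in wild-type and by 2.09 (SE 0.601, adjusted p = 0.0284) in V338Y mice. Its highest count, 1226 in a V338Y mouse of 19 months, was in a mouse with high choroid plexus markers. Between the genotypes at 19 months *Prlr* differed by 0.48 (SE 0.638, adjusted p = 0.789). *Ghr*, the growth hormone receptor, rose by 0.71 (SE 0.0935, adjusted p = 1.02e-07) and by 0.64 (SE 0.0753, adjusted p = 2.17e-05). *Hcrtr1*, an orexin receptor, fell by 0.92 (SE 0.236, adjusted p = 0.0012) and by 0.51 (SE 0.184, adjusted p = 0.0356). *Tshr*, the thyrotropin receptor, had 3 to 6 counts in wild-type and 3 to 12 in V338Y mice of 3 months, and 8 to 15 and 11 to 17 at 19 months. Since it passed the filter only through the 19-month mice in either genotype, its log2 fold changes of 1.75 and 1.06 are given without a test. It is nevertheless among the 6 receptors counted as risen in wild-type and the 3 in V338Y mice, so these counts are a description.

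Of 10 genes tested downstream of prolactin and growth hormone signalling, 5 rose and 1 fell with age in wild-type mice, against 31.4% and 31.5% of all genes. In V338Y mice 5 rose and none fell, against 23.1% and 25.7%. *Socs3*, a feedback inhibitor of cytokine receptors, rose by 1.37 (SE 0.156, edgeR adjusted p = 5.68e-09) and by 1.45 (SE 0.158, adjusted p = 1.19e-05). *Igf1r*, the receptor of insulin-like growth factor 1, rose by 1.17 (SE 0.0713, adjusted p = 2.80e-11) and by 0.85 (SE 0.139, adjusted p = 9.20e-04). *Stat5a*, a transcription factor activated by both hormones, rose by 0.63 in either genotype (adjusted p = 0.0103 and 0.0041). *Igfbp3*, a binding protein of the growth factor, rose by 0.45 (SE 0.0982, adjusted p = 2.22e-04) and by 0.33 (SE 0.120, adjusted p = 0.0353). Between the genotypes at 19 months none of the 10 passed the test in edgeR or in DESeq2, against 3.12% of all 16420 genes in edgeR. The unadjusted edgeR p was under 0.05 for 1 (*Igf1r*), as for 2660 of the 16420 genes. The median log2 fold change was -0.02, against -7.2e-04 for all genes.

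Genes that process and store peptide hormones are expressed in neurons throughout the cortex, and all 13 passed the count filter. With age, 3 rose and 7 fell in wild-type mice, against 31.4% and 31.5% of all genes, and 3 rose and 4 fell in V338Y mice, against 23.1% and 25.7%. *Cpe*, the carboxypeptidase that trims peptide precursors, rose by 0.40 (SE 0.0417, edgeR adjusted p = 1.29e-09) and by 0.44 (SE 0.0817, adjusted p = 7.38e-04). The granins *Chga* and *Scg2*, cargo of dense-core vesicles, fell by 0.72 and 0.51 in wild-type and by 0.63 and 0.41 in V338Y mice, and *Cadps2*, which primes these vesicles, fell by 0.70 and 0.63. For *Cadps2*, V338Y mouse 14 of 3 months, in which cerebellar markers were low, had 122 CPM, against 151 to 217 CPM in the other 3-month mice and 103 to 123 CPM at 19 months. The part of the cerebellar markers in this fall was not tested. Between the genotypes at 19 months, *Vgf* and *Pcsk1n* were higher in V338Y mice, against 196 of all 16420 genes tested that were higher. The other 11 did not pass the test. *Vgf*, a neuropeptide precursor that neuronal activity induces, was at 148 ± 6.08 CPM in V338Y and 124 ± 4.78 CPM in wild-type mice (SD, n = 4 each), a log2 fold change of 0.23 (SE 0.0402, edgeR adjusted p = 4.30e-04) with no overlap. *Pcsk1n*, an inhibitor of a prohormone convertase, differed by 0.24 (SE 0.0534, adjusted p = 0.0170). In a single fit of all 16 mice the adjusted p was 0.383 for *Vgf* and 0.583 for *Pcsk1n*, and the latter was between 8.50e-04 and 0.0746 when a mouse was left out.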

How the data were processed

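RNA-seq of brain from 16 mice, 4 per genotype and age, was used, and groups and mouse numbers were taken from the sample labels. The deposited values are the authors' expected count of single-end reads per gene, not normalized, and are whole numbers with at most 4 significant digits. The paper names RSEM with an Ensembl annotation and an older genome, whereas the submitters' processing notes list bcl2fastq 1.8.4, STAR 2.4.2a, featureCounts and GRCm38, so the counter and its treatment of shared or antisense reads are uncertain. Of 39179 identifiers, 37607 received a symbol from GENCODE M21 (GRCm38).

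The hormone genes and the other lists were chosen with earlier results of these data known. Genes reaching 10 counts in 2 or more mice of a group were tested with edgeR 4.0.16 (R 4.3.3; TMM, robust quasi-likelihood test, Benjamini-Hochberg adjustment over all genes, threshold 0.05), fitted per comparison, or to all mice for the difference of the genotype effects. Steps were tested on simulated data. CPM are TMM-scaled. Log2 CPM for correlations used a prior count of 2, and pairs needed at least 10 counts in 6 of 8 mice. Pooled ratios carry exact 95% intervals for counting error, and a floor of 3 counts was used against groups at 0.

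All hormone genes are named. From the other lists, genes past the threshold in both age comparisons (at most 4 per list, by the change in wild-type mice) or in a genotype comparison are named. Single genes named for their absence (*Tbx19*, *Fshb*, *Ghrhr*, *Gnrhr*, *Pou1f1*) and *Tac2*, *Gal*, *Lhcgr*, *Trhr2*, *Slc22a6* and the sex-linked genes were chosen after their values were seen. The result of 1 gene of the lists is not reported here. Alternatives were DESeq2 1.42.0, RLE size factors, library size only, a stricter and no count filter, one fit of 16 mice, and leaving out each mouse. No column of the count table lacked a sample.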

Additional observations from a re-analysis of the deposited data

Results flagged for a closer look

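In 5 of the 30 groups of 4 mice with at least 10 counts of a hormone gene in some mouse, 1 mouse lay so far from the others that its gap, as a share of the group's range, was above Dixon's 95% critical value. For normally distributed values, chance alone gives this in about 1 of 20 groups. That rate does not hold for low counts, such as the 0, 0, 0 and 13 of *Gh* in wild-type mice of 3 months. The 5 groups are therefore a description and not an excess over chance. *Pomc* was at 58.9 CPM in V338Y mouse 20 of 19 months, and at 2.20 CPM in wild-type mouse 10 of 3 months, in both cases the highest of the group. *Gh* was the highest of its group at 1.12 CPM in wild-type mouse 12 of 3 months, which was also the only mouse of that age with counts of *Prl*. It was likewise highest at 5.76 CPM in wild-type mouse 15 and at 1.59 CPM in V338Y mouse 17 of 19 months.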

How the results depend on the processing

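*Prl* and *Gh* remained lower in V338Y mice of 19 months and past the threshold under every alternative run, with log2 fold changes of -2.32 to -2.09 for *Prl* and -2.69 to -2.31 for *Gh*. These runs reuse the values that were known when the genes were chosen, so they show the dependence on settings only. The number of genes called at 19 months was 512, against 791 with no count filter, 116 in one fit of 16 mice and 287 (without V338Y mouse 19) to 611 (without wild-type mouse 12) with a mouse left out; it was 294 without wild-type mouse 13. Scaling by library size alone gave 357 higher and 263 lower, against 196 and 316, and with age in wild-type mice 4175 higher and 6321 lower, against 5050 and 5065. At 3 months the 10 calls became 26 in DESeq2, 20 with no filter, 23 in one fit and 6 (without wild-type mouse 12) to 13 with a mouse left out. The 9 calls for the difference of the genotype effects became 43 in DESeq2, 32 with no filter and 1 (without wild-type mouse 10) to 57 (without V338Y mouse 14 of 3 months). Age calls stayed between 9340 and 9986 in wild-type and between 7013 and 8573 in V338Y mice with a mouse left out. Correlated pairs by Pearson's r numbered 2, and 0 to 3 with a mouse left out. None was left without wild-type mouse 10 or V338Y mouse 14 or 15 of 3 months. The number was 0 with genotypes centred and 0 without the 2 farthest mice. In these 2 settings, too few arrangements of the mice exist for a single pair to pass after adjustment over 43 pairs. The 0 there is therefore no measure of robustness. The cause of the other changes was not tested.

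Leaving out 1 mouse turned the direction of small differences. At 19 months the range was -0.059 to 0.38 for *Oxt*, -0.13 to 0.52 for *Avp*, -0.15 to 0.32 for *Pmch*, and -0.69 to 1.24 for *Pomc*. At 3 months it was -0.66 to 0.21 for *Oxt*, -0.71 to 0.026 for *Avp* and -0.17 to 0.23 for *Pomc*. For the difference between the ages it was -0.13 to 0.75 for *Oxt* and -0.64 to 1.25 for *Pomc*. Low counts limit *Cga*, *Gh* and *Ghrh*. No paired analysis was possible because the mice were killed for sampling, so the groups hold different mice. A mouse number that occurs at both ages is a label only.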

Other observations

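Over the 8 mice of 19 months, with each genotype centred on its mean, 12888 genes with a mean of at least 50 counts were ranked by their Pearson r with each hormone gene, as a description. With 8 mice and this many genes, high coefficients are common. *Hectd2* (r = 0.985), *Lrrtm4* (0.975) and *Nbas* (0.973) were most like *Prl*, and *Haus6* (0.992), *Ankef1* (0.982) and *Atp7a* (0.975) most like *Gh*. These top 3 had no gene in common, which does not cover the genes ranked below them. *Spon1* (0.984), *Rabac1* (0.981) and *Hpgd* (0.971) were most like *Pomc*. For *Oxt* they were *Hapln2* (0.993), an identifier without a symbol (0.991) and *Ndp* (0.985), and for *Avp* they were *Aldh4a1* (0.988), *Zfp952* (0.970) and *Arfrp1* (0.959). For *Hcrt* they were *Gm20521* (0.975), *Tmed3* (0.959) and *Ift52* (0.956). *Maea* (0.955), *Siva1* (0.954) and *Plpbp* (0.948) were most like *Pmch*, and *Klhl22* (0.990), *Fzd1* (0.970) and *Cdc34* (0.956) most like *Trh*.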
